A study of Macaca mulatta with 20 samples.

Results

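The 10 genes described here, FCER1A, MS4A2, HDC, CPA3, GATA2, CLC, PRG2, RNASE2, CCR3 and IL5RA, are markers of basophils and eosinophils. They were chosen by gene name, and every non-control probe carrying 1 of these names was taken, which gave 12 probes of the 34127 on the array. They were read on 20 Agilent Whole Human Genome arrays, 1 color each, from globin-depleted RNA from the whole blood of male rhesus macaques (Macaca mulatta) of Chinese origin, in the arm of a larger study that received no mitigator. The groups are pre-irradiation (3 days before exposure) and days 2, 5 and 30 after 10 Gy X-rays to the whole thorax, with 5 arrays in each, from a series of 8 animals. The labels give no age for an array. Replicate numbers were taken as animals, since the methods state that comparisons were paired by animal. RNA of 2 animals was pooled for 1 sample, and the labels do not say for which. No unirradiated animal was followed in parallel, so time after the first bleed and irradiation cannot be told apart.

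Basophils and eosinophils are the rarest granulocytes of blood. Basophils, like tissue mast cells, carry the high-affinity IgE receptor and release histamine when it is crosslinked, and GATA2 is needed to form them. Eosinophils store cationic proteins in their granules, live on interleukin-5 and follow eotaxins through CCR3. In whole blood, fewer cells of a type and less RNA per cell cannot be told apart.

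Of the 10 members, 9 had at least 1 probe that could be tested, and PRG2 had none. A probe was tested where its signal was well above background, by the scanner software's own flag, on at least 5 of the 20 arrays. All 20 arrays read 6 of the 12 probes well above background (FCER1A, HDC, CPA3, GATA2, CLC and CCR3), 7 to 11 arrays read another 3 (MS4A2 11, RNASE2 7 and IL5RA 7), and the last 3 were read on fewer. Over the whole array 58.5% of probes passed this filter and 44.9% were detected on all 20 arrays. The arrays carry human sequence. Of the 10 genes 9 were matched by symbol or synonym to a rhesus gene of RefSeq, all but CLC. By symbol in Ensembl 7 were matched, all but CLC, PRG2 and RNASE2. None of the 12 probes was saturated on any array.

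The sequences of 8 probes that read coding sequence are shown, because probes to different stretches of 1 transcript were read differently for RNASE2 and MS4A2. All are given 5′ to 3′ as deposited, on the transcript's strand, and capitals mark the stop codon where a probe runs over the end of the coding sequence, with the bases after it left out.
FCER1A: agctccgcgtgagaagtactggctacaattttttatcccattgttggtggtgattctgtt
MS4A2, dim probe: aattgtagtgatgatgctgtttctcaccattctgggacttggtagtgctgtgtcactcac
CPA3: gccaagtatatcctcaagcatacttccTAA
CLC: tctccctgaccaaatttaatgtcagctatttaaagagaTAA
PRG2: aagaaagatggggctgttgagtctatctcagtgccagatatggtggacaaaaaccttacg
RNASE2, dim probe: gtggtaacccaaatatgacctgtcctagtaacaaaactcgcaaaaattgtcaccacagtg
RNASE2, tested probe: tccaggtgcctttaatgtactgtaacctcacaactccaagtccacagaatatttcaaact
IL5RA: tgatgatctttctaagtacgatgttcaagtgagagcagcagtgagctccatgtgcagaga

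Positions are those of the deposited files, on human hg19. The FCER1A probe spans chr1:159276034-159277595, 1562 bases of genome for 60 bases of probe, so it crosses a splice junction. The other basophil probes are CPA3 at chr3:148614465-148614524, HDC at chr15:50534170-50534229 on the minus strand, GATA2 at chr3:128199547-128199606 on the minus strand, the tested MS4A2 probe at chr11:59865756-59865815 and the dim one at chr11:59861439-59861498. The eosinophil probes are CLC at chr19:40222001-40222060, PRG2 at chr11:57156585-57156644 and IL5RA at chr3:3133949-3134008, all on the minus strand, and CCR3 at chr3:46307828-46307887 on the plus strand. The 2 RNASE2 probes lie side by side at chr14:21424175-21424234 and chr14:21424239-21424297, with 4 bases between them.

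The neighboring RNASE2 probes gave different readings. The first was well above background on 0 of 20 arrays, with scaled log2 signals from -6.27 to -4.70, and the second on 7 of 20, and across the 20 arrays their values did not rise and fall together (r = -0.23, rho = -0.27). Their GC contents were close, 41.7% and 40%. The MS4A2 pair, in contrast, moved together (r = 0.75, rho = 0.72), although the second was well above background on 3 arrays only. How well each human probe matches the rhesus transcript was not tested.

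All values below are log2 processed signals minus the 75th percentile of the array, called scaled log2 signals, so a negative value lies under that percentile. Each probe has its own response, so levels are compared between arrays and never between probes. A gene was called differentially expressed at p under 0.005 and a false discovery rate under 10% in limma, with arrays paired by replicate number. No member passed in any of the 6 comparisons among the 4 groups. At day 2 against pre-irradiation 0 of 9 members were called, where 0.0551% of the 19961 probes tested were called. At day 5 against pre-irradiation 0 of 9 were called against 0.0% of probes, and at day 30 against pre-irradiation 0 of 9 against 0.02%. Between the later days 0 of 9 were called at day 5 against day 2 (0.0% of probes), day 30 against day 2 (0.0551%) and day 30 against day 5 (0.0%). The F test over all 4 groups called 0 of 9, where it called 0.892% of probes. Its unadjusted p was under 0.05 for 1 of 9 members, RNASE2 (adjusted p = 0.259), and for 16.1% of probes. At an unadjusted p under 0.05 in limma there were 1, 2 and 1 of 9 members at days 2, 5 and 30 against pre-irradiation, and 14.8%, 11.4% and 17.5% of all probes. Between the later days there were 0 of 9 at day 5 against day 2 (3.47% of probes), 1 of 9 at day 30 against day 2 (13%) and 0 of 9 at day 30 against day 5 (8.31%). The groups did not overlap for 0 of 9 members in each of the 6 comparisons, where this held for 1.55%, 0.611% and 2.08% of probes at days 2, 5 and 30 against pre-irradiation, and for 0.125%, 1.81% and 0.631% in the 3 comparisons between later days. On data simulated for the day 2 comparison the test called 1 of 50 probes changed by 0.5 log2 units, 27 of 50 changed by 1 and 42 of 50 changed by 2. The changed probes were drawn at random from all tested, with independent noise. At day 2 the SE of the members ran from 0.16 to 0.53, where the median of all probes was 0.19. These counts therefore do not give the rate at which a member would be called.

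**Figure D1:**
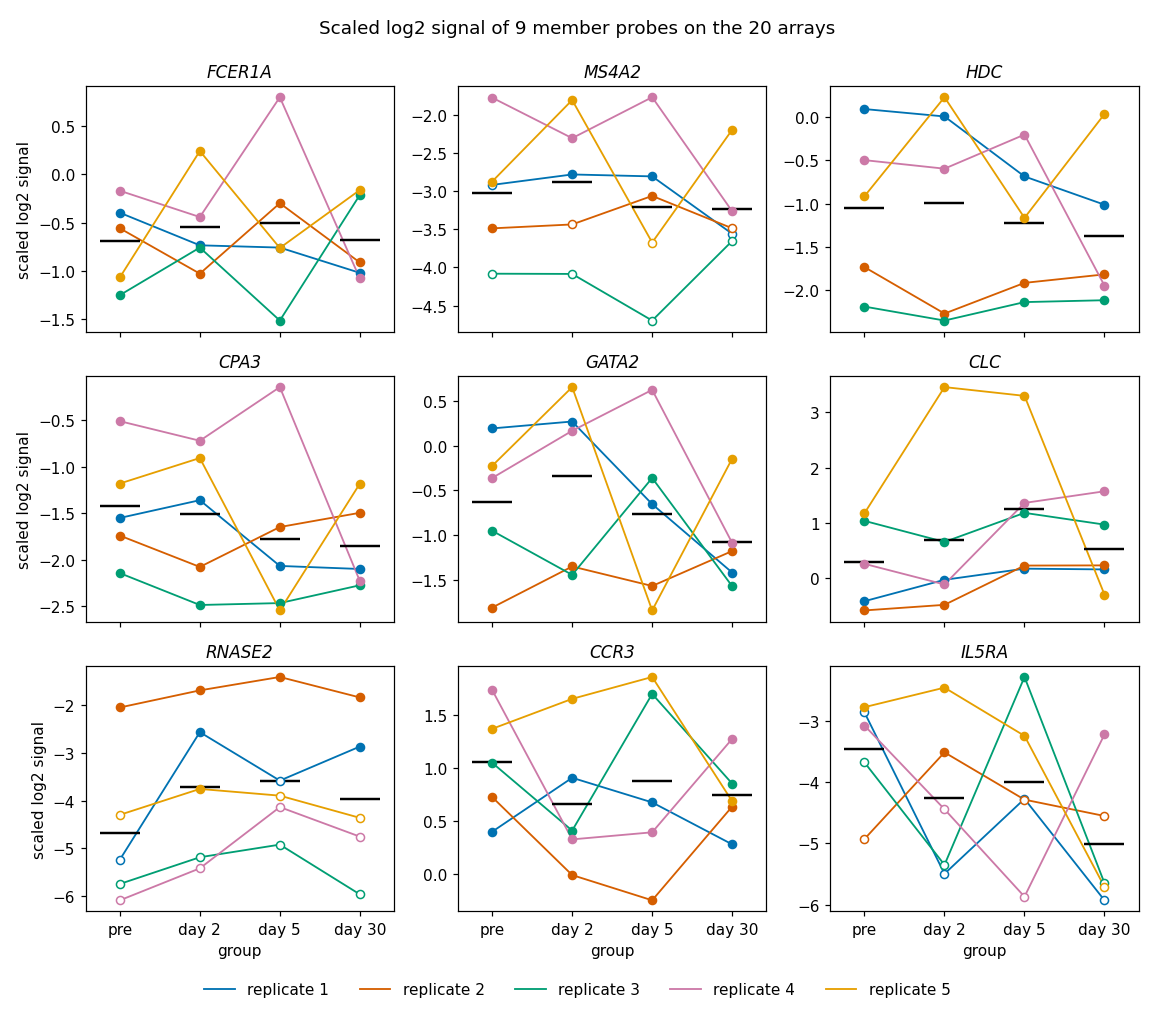
Scaled log2 signal (y axis, log2 scale, own range per panel) of the 9 tested members in the 4 groups (x axis), 1 line per replicate number; filled points are well above background, open points are not, and black bars are means of 5 arrays. The 5 basophil genes in the first 5 panels turn together in replicates 4 and 5 from day 2 on. CLC stands at 3.46 and 3.30 in replicate 5 on days 2 and 5.

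The IgE receptor genes come first. FCER1A encodes the alpha chain, which binds IgE and is also carried by dendritic cells. Its signals in replicates 1 to 5 were -0.40, -0.56, -1.25, -0.17 and -1.07 before irradiation, -0.73, -1.03, -0.76, -0.44 and 0.24 at day 2, -0.76, -0.30, -1.51, 0.79 and -0.76 at day 5, and -1.02, -0.91, -0.21, -1.08 and -0.16 at day 30. The 4 groups overlapped, and the highest array was replicate 4 at day 5. The change at day 5 was 0.18 ± 0.22 (SE, 95% interval -0.32 to 0.68, n = 5 pairs, adjusted p = 0.772), and those at days 2 and 30 were 0.14 ± 0.27 and 0.01 ± 0.32. MS4A2, the signal-amplifying beta chain, was dimmer.

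The tested MS4A2 probe was well above background on 3 arrays at each of pre-irradiation, day 2 and day 5, and on 2 at day 30. Replicate 3 was not above background on any array, at -4.08, -4.08, -4.70 and -3.65 over the time course, while replicate 4 was above it on all 4 arrays, at -1.77, -2.31, -1.77 and -3.26. The group means were -3.03 ± 0.86, -2.88 ± 0.90, -3.20 ± 1.08 and -3.23 ± 0.60 (SD, n = 5). The means lay closer together than 1 SD of any group. The dim MS4A2 probe was above background on 1 array in each of the first 3 groups and on 0 at day 30, and no fold could be bounded for it.

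HDC encodes histidine decarboxylase, the enzyme that makes histamine. Its signals in replicates 1 to 5 were 0.09, -1.73, -2.19, -0.50 and -0.91 before irradiation, 0.01, -2.27, -2.35, -0.60 and 0.23 at day 2, -0.69, -1.92, -2.14, -0.20 and -1.16 at day 5, and -1.01, -1.82, -2.12, -1.95 and 0.04 at day 30. Replicates 2 and 3 were low on every array, and replicates 1, 4 and 5 were above both of them in each group except at day 30, where replicate 4 fell among them. The replicate number accounted for 72.8% of the spread of HDC over the 20 arrays and the group for 2.78%. The changes against pre-irradiation were 0.05 ± 0.24, -0.17 ± 0.18 and -0.32 ± 0.33 at days 2, 5 and 30 (SE, n = 5 pairs; adjusted p = 0.936, 0.745 and 0.645). The day 30 change of HDC was -0.0413 without replicate 4, and the day 5 change -0.0212 without replicate 1.

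CPA3 encodes carboxypeptidase A3, a protease of basophil and mast cell granules. Its signals were -1.55, -1.74, -2.14, -0.51 and -1.18 before irradiation, -1.36, -2.08, -2.48, -0.72 and -0.90 at day 2, -2.06, -1.65, -2.46, -0.14 and -2.54 at day 5, and -2.10, -1.49, -2.27, -2.23 and -1.18 at day 30. Replicate 4 was the highest array of each of the first 3 groups and among the lowest at day 30. The mean moved from -1.42 ± 0.62 to -1.85 ± 0.49 (SD, n = 5), a change at day 30 of -0.43 ± 0.28 (SE, 95% interval -1.08 to 0.22, lower in 4 of 5 pairs, 1 of them by 0.0014 only, adjusted p = 0.459). Without replicate 4 the day 30 change was -0.11. At day 5 it was -0.35 ± 0.25, and -0.095 without replicate 5.

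GATA2 is a transcription factor of blood stem cells, basophils and mast cells. Its signals were 0.19, -1.81, -0.95, -0.36 and -0.23 before irradiation, 0.27, -1.35, -1.45, 0.17 and 0.66 at day 2, -0.65, -1.57, -0.36, 0.62 and -1.84 at day 5, and -1.42, -1.18, -1.57, -1.09 and -0.15 at day 30. The highest single values were at days 2 and 5 and the day 30 arrays lay toward the bottom of the range, with overlap. Day 30 was lower than day 2 by 0.74 on average (-0.74 ± 0.29, SE, n = 5 pairs, lower in 4 of 5, limma adjusted p = 0.365), which did not pass. Against pre-irradiation the GATA2 changes were 0.29 ± 0.21, -0.13 ± 0.37 and -0.45 ± 0.30 at days 2, 5 and 30. They were 0.14 at day 2 without replicate 5 and -0.16 at day 30 without replicate 1.

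From day 2 on, the 5 basophil genes turned together in replicates 4 and 5, and in replicates 2 and 3 they did not. In replicate 1 all 5 fell at both steps after day 2, some of them barely. There FCER1A and MS4A2 changed by -0.0233 and -0.0252 from day 2 to day 5, and CPA3 by -0.0329 from day 5 to day 30. From pre-irradiation to day 2 in replicate 4, GATA2 rose by 0.53 while CPA3, HDC, MS4A2 and FCER1A fell. In replicate 2 GATA2 changed by -0.22 from day 2 to day 5, while CPA3, HDC, MS4A2 and FCER1A rose by 0.35 to 0.73. In replicate 4 the value fell from day 5 to day 30 by 2.09 for CPA3, by 1.75 for HDC, by 1.5 for MS4A2, by 1.71 for GATA2 and by 1.87 for FCER1A. In replicate 5 all of them fell from day 2 to day 5, by 1.64, 1.39, 1.87, 2.5 and 1.0 in the same order. They then rose in replicate 5 from day 5 to day 30, by 1.36, 1.2, 1.48, 1.7 and 0.60. From day 5 to day 30 replicates 4 and 5 thus went in opposite directions. In replicate 3 GATA2 changed by 1.08 from day 2 to day 5 and by -1.21 from day 5 to day 30, while FCER1A changed by -0.75 and 1.30 and MS4A2 by -0.61 and 1.04 over the same steps. On these arrays 57.1% of the spots were well above background in replicate 4 at both day 5 and day 30, and 58.4%, 57.6% and 55.9% in replicate 5 at days 2, 5 and 30. In replicate 3 at day 5 that share was 67.3%, and MS4A2 was not above background on any array of replicate 3. Each step rests on 1 array per day and has no replicate check, and the part of array quality in it was not tested.

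**Figure D2:**
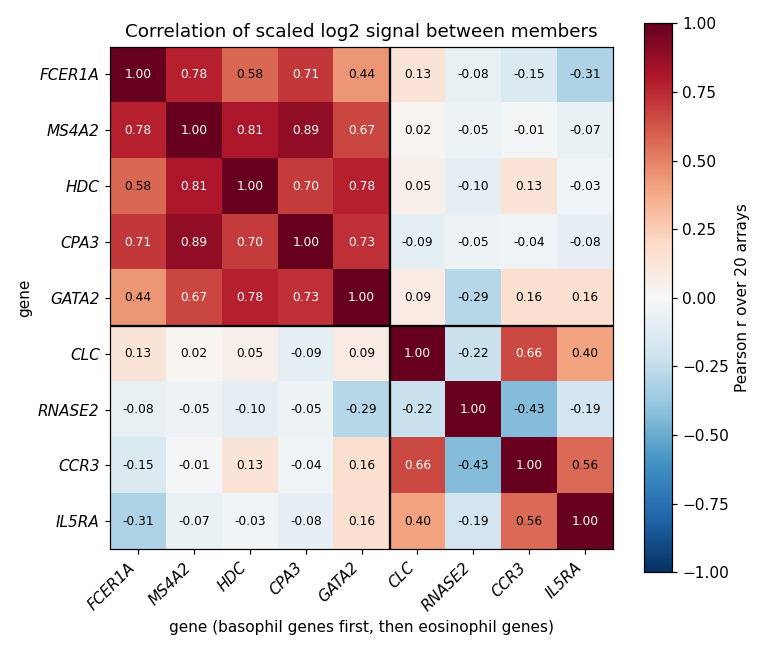
Pearson correlation of scaled log2 signal over the 20 arrays for each pair of the 9 tested members, with the color scale from -1 to 1; black lines part the 5 basophil genes from the 4 eosinophil genes. Correlations within the basophil block run from 0.44 to 0.89, and those between the blocks from -0.31 to 0.16.

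Across the 20 arrays the basophil genes were positively correlated with each other. The split into basophil and eosinophil genes follows textbook knowledge and was written with these values known. The 10 pairs within the basophil block had correlations from 0.44 to 0.89 (median 0.72), while the 20 pairs between a basophil and an eosinophil gene had correlations from -0.31 to 0.16 (median -0.04). CPA3 and MS4A2 were the closest pair (r = 0.89, rho = 0.90), followed by HDC and MS4A2 (r = 0.81, rho = 0.81) and by HDC and GATA2 (r = 0.78, rho = 0.71). Without the 2 arrays farthest from the median of the first gene, these values were 0.84, 0.76 and 0.73. For scale, CPA3 had a median correlation of -0.03 with the 15321 other probes above background on all arrays, and a 95th percentile of 0.52. For FCER1A that percentile was 0.56, so its correlation of 0.44 with GATA2 lay inside the range of other probes and that of 0.58 with HDC just above it. Genes outside the members also reached the range of the block: CPA3 correlated at 0.75 with CMA1, a mast cell chymase, at 0.68 with GATA3 and at 0.63 with LAT, and GATA2 at 0.72 with the platelet gene GP9. With group and replicate means removed the median within it was 0.78 and that between the blocks -0.21. FCER1A and GATA2 were the loosest pair of the block, and their correlation of 0.44 fell to 0.09 without 2 arrays. These are descriptions: the 20 arrays come from few animals sampled repeatedly, so no p-value is attached.

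The eosinophil genes were less uniform. Their 6 pairs had correlations from -0.43 to 0.66 (median 0.10). CLC and CCR3 were the closest (r = 0.66, rho = 0.60, and 0.48 without the 2 arrays farthest in CLC), followed by CCR3 and IL5RA at 0.56, and RNASE2 had correlations of -0.19 to -0.43 with the other 3. With group and replicate means removed, the median of the 6 pairs was 0.34, and RNASE2 stood at 0.26 with CLC, 0.17 with CCR3 and -0.26 with IL5RA.

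CLC encodes galectin-10, the protein of Charcot-Leyden crystals, abundant in eosinophils and also present in basophils. Its signals were -0.42, -0.58, 1.04, 0.26 and 1.18 before irradiation, -0.03, -0.48, 0.66, -0.11 and 3.46 at day 2, 0.17, 0.23, 1.18, 1.36 and 3.30 at day 5, and 0.16, 0.23, 0.97, 1.57 and -0.30 at day 30. Replicate 5 rose by 2.28 log2 units from pre-irradiation to day 2, stayed there at day 5 and was the lowest array of its group at day 30. At day 5 CLC exceeded its pre-irradiation value in 5 of 5 pairs, a pattern in 1 direction that 13.1% of all probes showed. The change at day 5 was 0.95 ± 0.27 (SE, 95% interval 0.32 to 1.58, limma adjusted p = 0.327) and did not pass. With the slide as a random block beside the replicate block CLC was called (limma adjusted p = 0.0723). That fit called 1045 of the 19961 probes at day 5, where the fit reported here called 0. Without replicate 5 the CLC change was 0.66 at day 5, and at day 2 it went from 0.40 ± 0.37 to -0.07. At day 30 the change was 0.23 ± 0.36, with 3 pairs higher and 2 lower.

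PRG2 encodes the major basic protein of the eosinophil granule. Its probe was well above background on 1 of 20 arrays, replicate 3 at day 5, at -2.96. All other arrays lay between -6.12 and -5.18 and gave no reading, so no change was tested. That array stands apart from the rest of the series: 67.3% of its spots were well above background, and 50.9% to 58.8% on the other 19. Whether this set the PRG2 reading was not tested.

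RNASE2, the eosinophil-derived neurotoxin and also a product of monocytes and neutrophils, was measured by its second probe. Replicate 2 was well above background on all 4 arrays, at -2.04, -1.69, -1.40 and -1.83, and was the highest array of every group. Replicate 1 was above background at day 2 (-2.56) and day 30 (-2.86) but not before irradiation (-5.24) or at day 5 (-3.58), replicate 5 at day 2 only (-3.75), and replicates 3 and 4 on no array (-6.09 to -4.14). The replicate number accounted for 81.9% of the spread, the largest share among the members. The median was 31.8% over the 15322 probes above background on all arrays. Most RNASE2 values are background readings, so its share is not comparable with that median.

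RNASE2 lay above its pre-irradiation signal in 5 of 5 pairs at day 2 (0.96 ± 0.33, SE, limma adjusted p = 0.26) and in 5 of 5 at day 5 (1.10 ± 0.25, adjusted p = 0.288), and in 3 of 5 at day 30 (0.73 ± 0.37, adjusted p = 0.349). Such 1-directional sets of pairs made up 13.9% and 13.1% of all probes at days 2 and 5. The day 5 value had an unadjusted p under 0.005, 1 of 9 members where 1.61% of probes had one, and it did not pass the false discovery rate. With the slide as a random block beside the replicate block RNASE2 was called at day 5 (limma adjusted p = 0.0565). That fit called 1045 of the 19961 probes at day 5, where the fit reported here called 0. Of the 20 readings 13 were not above background, and with normexp, a model-based background correction, the day 5 change was 0.25. Without replicate 1 the day 2 change was 0.53 and the day 30 change 0.32.

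CCR3, the eotaxin receptor of eosinophils and basophils, was at 0.40, 0.73, 1.05, 1.74 and 1.37 before irradiation, 0.91, -0.01, 0.41, 0.33 and 1.65 at day 2, 0.68, -0.25, 1.70, 0.39 and 1.86 at day 5, and 0.28, 0.64, 0.85, 1.28 and 0.69 at day 30. Replicate 5 was the highest array at days 2 and 5, the same arrays on which CLC was highest. At day 30 CCR3 was lower than before in 5 of 5 pairs, by 0.09 to 0.68, a change of -0.31 ± 0.17 (SE, 95% interval -0.71 to 0.09, adjusted p = 0.388), where 17.9% of probes moved 1 way in all pairs. At days 2 and 5 the changes were -0.40 ± 0.28 and -0.18 ± 0.32, and without replicate 4 they were -0.15 and 0.11.

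IL5RA encodes the alpha chain of the interleukin-5 receptor. It was well above background on 2 arrays in each of the first 3 groups and on 1 at day 30, so most of its values are background readings. The signals were -2.86, -4.93, -3.68, -3.07 and -2.77 before irradiation, -5.50, -3.51, -5.35, -4.44 and -2.45 at day 2, -4.27, -4.28, -2.28, -5.87 and -3.24 at day 5, and -5.93, -4.55, -5.65, -3.22 and -5.71 at day 30. Its highest value, -2.28, was on the array with the raised share of spots above background. The change at day 30 was -1.55 ± 0.51 (SE, lower in 4 of 5 pairs, limma adjusted p = 0.198), which did not pass, and with normexp background correction it was 0.10. The changes at days 2 and 5 were -0.79 ± 0.53 and -0.53 ± 0.55, the widest errors of the members, and they were -0.33 at day 2 without replicate 1 and 0.0398 at day 5 without replicate 4.

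**Figure D3:**
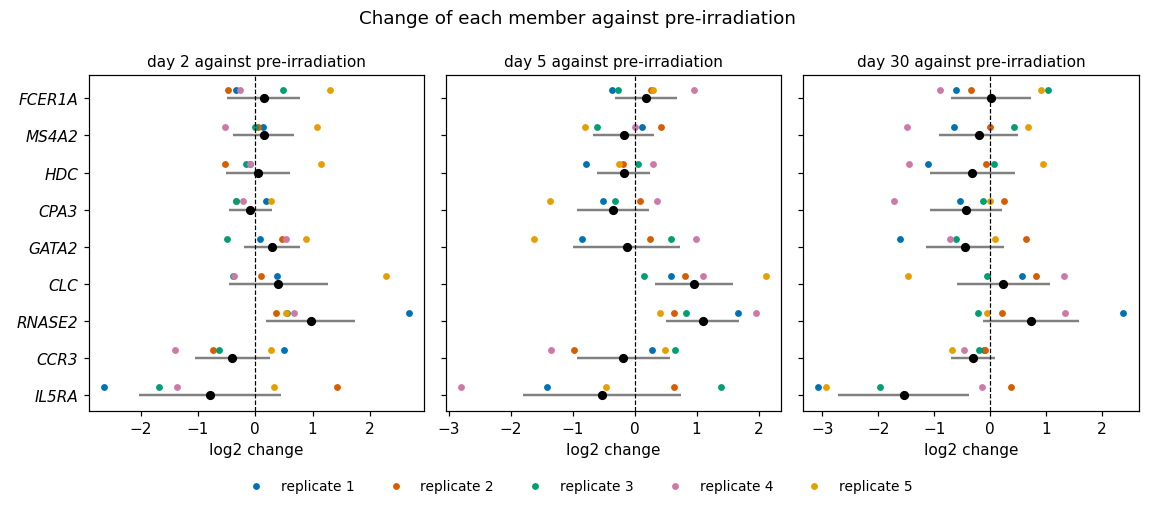
Log2 change (x axis) of the 9 tested members at days 2, 5 and 30 against pre-irradiation; black points are the fitted changes, grey bars their 95% intervals from limma, and colored points the 5 single pairs. No member was called, and the intervals that leave out 0 are those of RNASE2 at days 2 and 5 (0.96 and 1.10), CLC at day 5 (0.95) and IL5RA at day 30 (-1.55).

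Taking all 9 tested members, 6 were higher and 3 lower at day 2 than before irradiation, 3 higher and 6 lower at day 5, and 3 higher and 6 lower at day 30. Their median changes were 0.14, -0.17 and -0.31, where those of all probes were -0.02, 0.02 and 0.01. The SD of the members' median between single pairs was 0.49, 0.32 and 0.40, larger than the medians themselves. Without replicate 5 the day 2 median was -0.15, without replicate 4 the day 5 median was -0.0147, and without replicate 4 the day 30 median was -0.0413. The 3 comparisons share the pre-irradiation arrays and are not independent.

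The SD of their signals over the 20 arrays was 0.54 for FCER1A, 0.60 for CCR3, 0.70 for CPA3, 0.82 for GATA2, 0.91 for HDC and 1.12 for CLC, where the median over the 15322 probes above background on all arrays was 0.36. Of those probes 82.6% had a lower SD than FCER1A, and 98.9% a lower one than CLC. Group accounted for 2.28% to 11% of the spread in these 6 genes, against a median of 18.1% over all those probes. For IL5RA, well above background on 7 of the 20 arrays, the group accounted for 22% and the replicate number for 9%. Most of its values are background readings, so these shares are not comparable with that median.

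**Figure D4:**
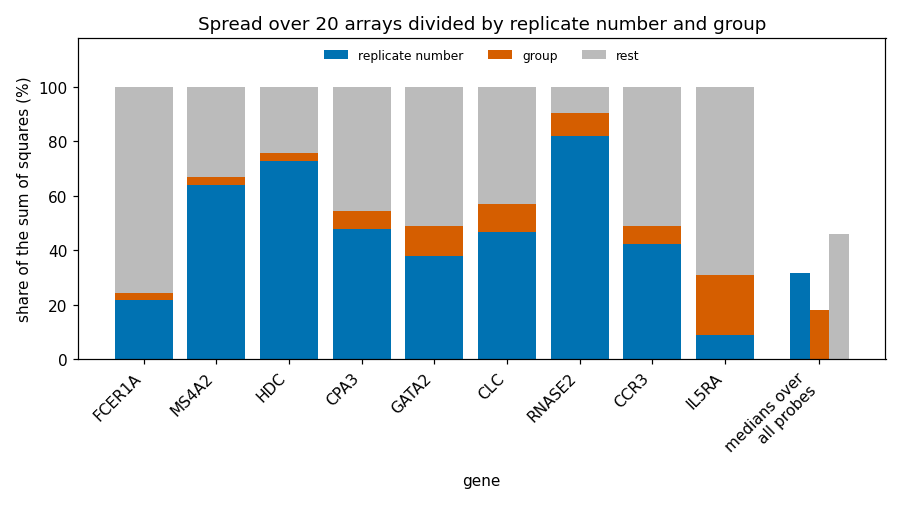
Share of the sum of squares of scaled log2 signal over 20 arrays (y axis, %) that goes with the replicate number, the group and the rest, as stacked bars for the 9 tested members, and as 3 separate bars for the medians over all probes above background on every array. The replicate number takes 72.8% for HDC and 81.9% for RNASE2, and the group takes 10.4% for CLC, below the median of 18.1%.

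For each of the 6 members above background on every array, the 3 probes of other genes with the most similar course over the 20 arrays were looked up among the 15322. For GATA2 the nearest was HDC (r = 0.78), itself a member, followed by EXOC3L4 and an unnamed probe (both 0.77). For HDC they were MGAT3 (0.89), CCDC127 (0.83) and KATNAL1 (0.81), and for CPA3 they were ACAT1, PKIA and TOX (0.83, 0.83 and 0.82). For FCER1A they were MANEA, SS18 and KIAA0101 (0.84, 0.83 and 0.80). For CLC they were PTPN18 (0.83), OXR1 (0.74) and an unnamed probe (0.73), and for CCR3 they were SLC29A1, SP6 and AHR (0.84, 0.80 and 0.77).

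The wider set of basophil and mast cell genes was read in part. Of 20 listed, 19 had a probe and 12 could be tested, and 0 were called in any comparison. Over the whole array 58.5% of probes could be tested. The leading genes of the set, ENPP3, MS4A3 and TPSAB1, the last encoding a mast cell tryptase, were above background on 0 of 20 arrays. Its genes CMA1, CD63 and CD69 were so on all 20. Of 7 genes of histamine synthesis, storage, breakdown and receptors, 5 were tested and 0 called: SLC18A2, the vesicular monoamine transporter, was above background on 7 arrays, the histamine-degrading enzyme HNMT on 19 (0.51 ± 0.17 at day 5, SE, adjusted p = 0.366) and AOC1 on 0. The 16 genes of IgE receptor signaling were all tested and 0 were called. At day 2 13 of the 16 were higher and their median was 0.25, with FCER1G, the gamma chain shared with other Fc receptors, at 0.67 ± 0.14 (adjusted p = 0.15), LYN at 0.71 ± 0.18 (0.183) and SYK at 0.28 ± 0.18 (0.512).

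Of 20 further eosinophil genes 14 could be tested and 0 were called. RNASE3, the eosinophil cationic protein and close relative of RNASE2, was above background on 12 arrays and higher at day 5 in 5 of 5 pairs, by 1.40 ± 0.20 (SE, limma adjusted p = 0.281). PRG3, a relative of PRG2, was higher in 5 of 5 at day 5, by 0.73 ± 0.19 (limma adjusted p = 0.317). EPX, eosinophil peroxidase, was above background on 10 arrays and did not move the same way, at -0.42 ± 0.42 on day 5 and -1.15 ± 0.49 on day 2 (adjusted p = 0.331). Whether the RNASE2 and RNASE3 probes also bind each other's transcript was not tested.

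Among type 2 cytokines, chemokines and receptors 9 of 21 genes could be tested and 0 were called. IL3 and CSF2 were above background on 0 arrays and IL5 on 2. Of 16 GATA and C/EBP lineage transcription factors all were tested and 0 called, and GATA1, the partner of GATA2 in the eosinophil and basophil lineages, changed by 0.38 ± 0.29, 0.58 ± 0.29 and -0.41 ± 0.33 at days 2, 5 and 30. CEBPA was at 0.80 ± 0.18 at day 2 (adjusted p = 0.158) and GATA3, also a T cell gene, at -0.50 ± 0.18 (adjusted p = 0.265).

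Markers of the other blood cells were present: CD14, CSF1R, CSF3R, CXCR1, PF4, PPBP, ITGA2B, ALAS2, SLC4A1, CD3D, CD3E, CD3G, CD79A and the dendritic cell genes CD1A, CD1B and CD1C were above background on all 20 arrays. The B cell gene MS4A1 was so on 2, and the progenitor genes CD34 on 1, PROM1 on 0 and KIT on 17. Across 14 further lists, 147 of 192 genes were tested and 1, the NK and T cell receptor KLRB1, was called, lower at day 2 by 1.66 (-1.66 ± 0.21, adjusted p = 0.0962) and higher at day 30 than at day 2 (2.30 ± 0.26, adjusted p = 0.0959). All 12 neutrophil genes tested were higher at day 2 (median 0.96), day 5 (0.67) and day 30 (0.98), and all 9 monocyte genes (0.65, 0.40 and 0.76), with 0 called. The summed neutrophil signal ran from 7.42 to 8.98 before irradiation and from 8.48 to 10.2 at day 2 (log2 of the sum over 14 genes). It ran from 8.13 to 9.68 at day 5 and from 8.42 to 10.4 at day 30. Its brightest probe, CSF3R, had means of 8.89 at day 2 and 8.49 at day 5, and CAMP, the next, 6.83 and 6.55. The sum weights probes by brightness, so it mostly follows CSF3R. All 11 platelet genes were higher at day 2 (median 1.44), 14 of 15 T and NK cell genes were lower (-0.63), and 6 of 9 B cell genes were lower (-0.44). Of the other lists, the medians at day 2 were -0.09 for 10 erythroid genes, -0.12 for 9 dendritic cell genes and 0.26 for 4 progenitor genes. The part of these shifts in the members' values was not tested.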

How the data were processed

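Per the file headers, the authors ran Agilent Feature Extraction 12.0.2.2 (the submitters' processing notes name 10.7), which gives a background-subtracted processed intensity per spot, not normalized between arrays. The deposited log2 table holds 5 of the 12 member probes. Apart from a constant per array, 99.5% to 99.9% of its values match the log2 processed signal to within 0.001. Here spots marked as outliers were left out, spots of a probe averaged as log2, and the array's 75th percentile subtracted. The 19961 of 34127 probes detected on 5 or more arrays were tested with limma 3.58.1 under R 4.3.3, provided 4 or more pairs had a value. A fit held the 2 groups compared, blocked by replicate number, and p-values were adjusted by Benjamini-Hochberg over every probe tested. p-values measure the spread of the paired differences between replicate numbers. That spread also holds differences between slides and arrays, because the fit had no slide term. Summaries used Python and pandas.

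The pairing comes from the methods. Deviations from group means of arrays with the same number correlated with a median of 0.29 (30 pairs of arrays, -0.22 to 0.70), and those with different numbers with -0.05 (120 pairs). Each of 5 slides held 1 array of each group, always at the same position, so position and group cannot be told apart. A gene with several probes was counted by the one above background on most arrays. Members, gene lists and tests were chosen with earlier results of these data known. Named besides the members were the 3 nearest probes, called genes of the lists and each list's first 3 genes, of which FCGR1A and FCGR3B had no probe. The fit was tested on simulated data. The number of arrays limits the precision.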

Additional observations from a re-analysis of the deposited data

Results flagged for a closer look

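In 36 sets of 5 arrays (9 tested members in 4 groups), 1 array stood apart from the other 4 by Dixon's test at the 95% level in 2 sets, and about 1 in 20 sets is expected to do so by chance. The first was CLC in replicate 5 at day 2, at 3.46, a gap of 0.711 of the range of its group, just over the critical value of 0.71. The second was MS4A2 in replicate 5 at day 30, at -2.19, with a gap of 0.733 of the range. In that set replicates 1, 2 and 3 were not well above background, at -3.56, -3.49 and -3.65.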

How the results depend on the processing

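Every count of members called was 0 under the 15 alternatives, except at day 5 against pre-irradiation with the slide as a random block beside the replicate block, where 2 were called, CLC (0.95, adjusted p = 0.0723) and RNASE2 (1.10, adjusted p = 0.0565). That fit called 1045 of the 19961 probes at day 5 and 1483 at day 2. With the slide in place of the replicate block, chosen after seeing the data, and without the replicate block, 0 members were called, and with no replicate block CLC and RNASE2 kept changes of 0.95 and 1.10 at day 5 with an adjusted p = 0.927 each. Over all alternatives the number of all probes called ran from 0 to 1483 at day 2 (11 as reported), 0 to 1045 at day 5 (0), 0 to 899 at day 30 (4) and 0 to 209 in the F test (178), from 0 to 178 at day 30 against day 2 (11), from 0 to 2 at day 30 against day 5 (0), and was 0 at day 5 against day 2. The cause was not tested.

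No member was called in the fit reported here. Of 414 recomputed changes of single members, 18 changed sign. With normexp background correction these were CPA3 (0.23) and IL5RA (0.40) at day 2, and MS4A2 (0.24) and IL5RA (0.10) at day 30. Leaving out 1 replicate at a time, the change at day 2 ran from -0.066 to 0.60 for CLC, -0.22 to 0.20 for HDC, -0.0865 to 0.31 for MS4A2 and -0.15 to 0.30 for FCER1A (each lowest without replicate 5), at day 5 from -0.41 to 0.24 for GATA2, -0.39 to 0.11 for CCR3, -0.0147 to 0.32 for FCER1A and -1.01 to 0.0398 for IL5RA, and at day 30 from -0.24 to 0.24 for FCER1A, -0.0377 to 0.66 for CLC and -0.43 to 0.12 for MS4A2. The sign at day 5 turned without replicate 1 or 5 for GATA2, without 2 or 4 for CCR3 and without 4 for FCER1A and IL5RA, and at day 30 without 3 or 5 for FCER1A and without 4 for CLC and MS4A2. Readings at background limit MS4A2, RNASE2 and IL5RA.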
